A study of Mus musculus with 11 samples.

Results

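The genes described here are 9 very large mouse genes whose human counterparts lie at common fragile sites: Fhit, Wwox, Lrp1b, Macrod2, Ptprd, Dpyd, Ctnna3, Dlg2 and Magi2. They were taken by name from the annotation of the genomic probes on a mouse comparative genomic hybridisation array, 9 of 20709 gene names, with 1195 of the 170305 probes between them. The study compared genomic DNA of 11 mammary tumours from mice of the genotype Pik3ca H1047R, an activating mutation of the catalytic subunit of PI3-kinase, with liver DNA of the same animal, which carries the same genotype label. Tumour DNA was labelled with Cy5 and liver DNA with Cy3, 1 array per animal and with no dye swap, and both tissues came from mice labelled Mixed FVBN/Bl6. The promoter that drives the mutant and the ages of the mice are not given in the sources used here. Every value below is a log2 ratio of tumour over liver, centred on the median of its array. A value of 0 is thus the median level of that array, and a positive value lies above it. Gains and losses are called only by the limits given below.

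Common fragile sites are stretches of the genome that break or form gaps when DNA replication is slowed. Many of them coincide with very large genes, which replicate late and are poor in replication origins, and the breaks often leave deletions inside the gene. In human tumours such deletions are known for FHIT, WWOX, LRP1B, MACROD2 and PTPRD among others, which is why the data were read for 2 kinds of change: a focal change inside the gene, and a change of the whole chromosomal neighbourhood that carries the gene along.

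The array covered the 9 genes at a median probe spacing of 8.57 to 10.1 kb. The noise SD between neighbouring probes was 0.131 in tumour 8, the lowest, 0.177 at the median, and 0.554 and 0.514 in tumours 9 and 11, the highest. At these noise levels the mean of 12 probes has a standard error of 0.0379 in tumour 8 but 0.160 in tumour 9 and 0.148 in tumour 11, so short intragenic changes of the size described below were not detectable in those 2 tumours. The array of tumour 11 ran opposite to several others over all autosomal probes (Pearson r = -0.652 with tumour 9, -0.613 with tumour 5, -0.604 with tumour 4 and -0.320 with tumour 10, across probes, which are not independent). It did not run opposite to all: r was -0.215 to -0.0359 with tumours 7, 3, 2 and 8, 0.0817 with tumour 1 and 0.250 with tumour 6. Tumours 4, 5 and 9 were alike, with r of 0.719 to 0.783 between them. The labels give its dyes as on the other arrays, so its direction was kept, its true direction cannot be settled from these files, and where it changes a result the value with its ratios turned and the value without it are given.

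Across the 99 pairs of gene and tumour, the means of the 9 genes lay near those of their surroundings, as in most pairs over all genes. The gene mean differed from the mean of the probes within 5 Mb on each side by less than 0.1 in 93 pairs (93.9%), and by 0.191 at most. The share within 0.1 was 85.3% over all genes with at least 20 probes and 88.4% over the 235 other genes of at least 500 kb. No pair was off its flanks by the limit used (at least 0.2 and at least 3 standard errors), against 1.35% of the 11858 pairs over all genes with at least 20 probes (0.531% higher and 0.818% lower) and 46 of 2585 pairs (1.78%) of the 235 other genes of at least 500 kb. A count of 0 in 99 pairs lies near these shares. A gene mean can also miss a change of part of a gene. Wwox in tumour 1, with the loss of 12 probes described below, differed from its flanks by -0.08. Pearson's r between gene mean and flank mean was 0.927 over the 99 pairs and 0.954 without tumours 9 and 11, a description only, since each pair shares its array.

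**Figure D1:**
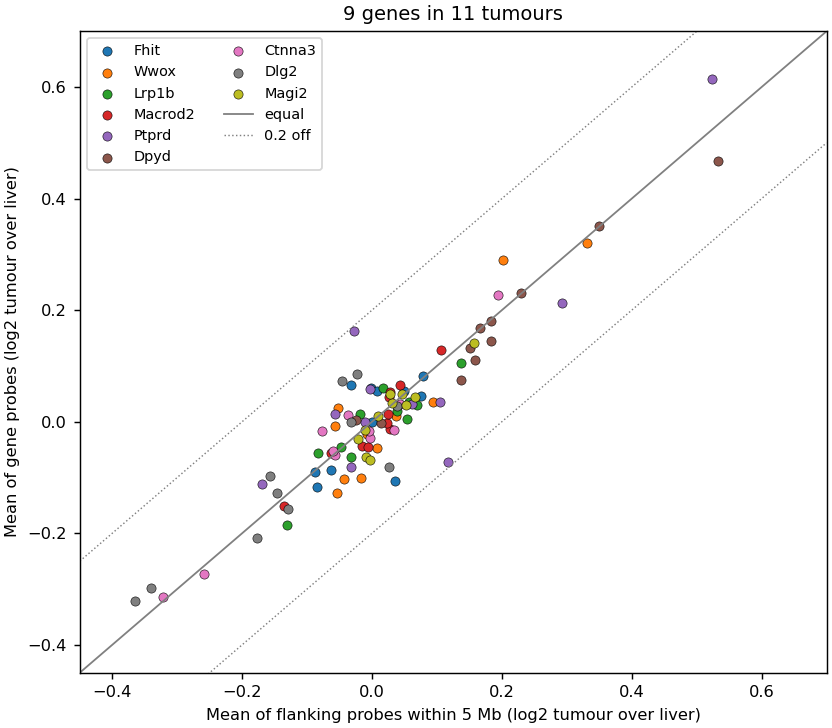
Mean of the probes of each gene (vertical axis) against the mean of the probes within 5 Mb on either side (horizontal axis), both log2 tumour over liver, 1 point per gene and tumour, coloured by gene. The 99 points lie along the line of equality and none lies beyond the dotted lines 0.2 away from it.

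Focal changes inside a gene were found in 2 pairs with the main settings, 1 in Wwox and 1 in Lrp1b, both to a lower level. The Wwox segment, with 12 probes, met the limits of a called loss given below. The Lrp1b segment, with 5 probes, did not, since a call needs at least 10. The change in Lrp1b was not found with normexp or without dim probes. Neither was found with a segmentation penalty factor of 4. Segmentation of each array placed change points of at least 0.2 inside a gene in 2 of 99 pairs (2.02%), against 0.599% of pairs over all genes with at least 20 probes and 1.35% over the other large genes. Counted as whole segments with both ends inside the gene, the share was again 2.02%, against 0.236% over all genes with at least 20 probes and 16 of 2585 pairs (0.619%) over the other large genes. These are the same 2 pairs. A segment inside Macrod2 in tumour 6, with steps under 0.2, is not in this count. The shares of pairs are not adjusted for gene length, unlike the rate that follows. Change points per 100 Mb and tumour came to 3.10 in the 9 genes (4 change points in 11.7 Mb), 2.92 in the other large genes and 1.55 over the whole genome covered by the array. With 2 pairs these shares rest on single arrays and were not tested.

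Wwox encodes a WW domain oxidoreductase that is a tumour suppressor in mice. It is covered by 90 probes between 116971226 and 117871402 on chromosome 8 (build mm9, 900.2 kb). In tumour 1, 12 consecutive probes inside the gene were low, from chr8:117587710-117703520, a stretch of 115.8 kb that begins 616.5 kb from the first Wwox probe. Their values ran from -0.83 to -0.15 with a median of -0.41 and a mean of -0.43 ± 0.19 (SD over 12 probes), while the other 78 Wwox probes averaged -0.05 in that tumour. All 12 probes lay below that average, none of them was dim, and the difference was -0.38 with a standard error of 0.051 from the noise of the array. Segmentation picked the stretch for its low level on this same array. The difference and the count below the average therefore describe it and do not test it. The segments on either side, which reach beyond the gene, had means of -0.06 and -0.01, so the loss lay wholly inside Wwox. The array annotation used here names the gene but not its exons, so whether the stretch removes an exon was not analysed.

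**Figure D2:**
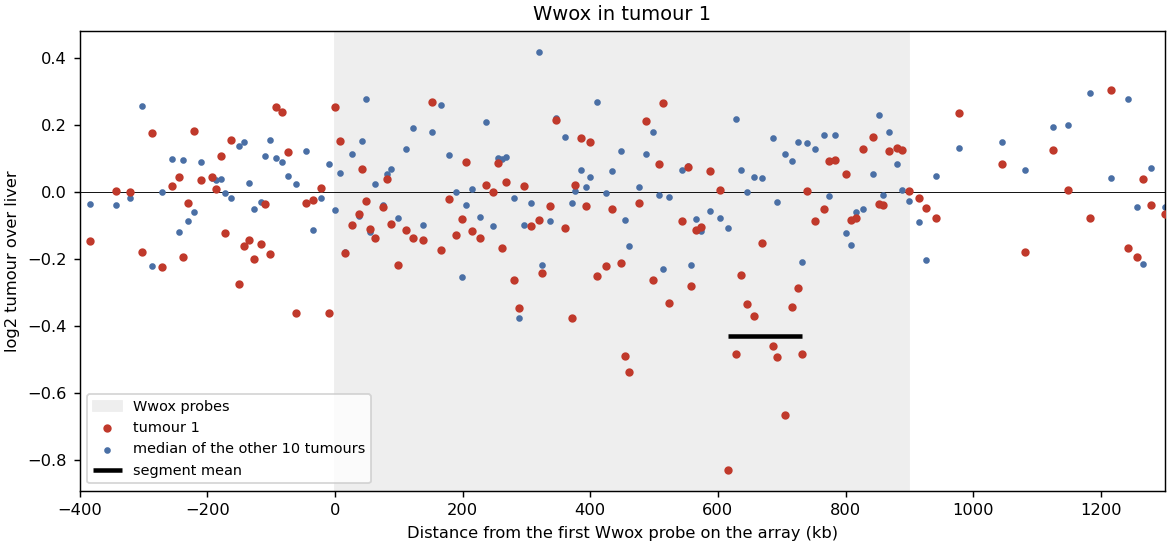
log2 tumour over liver (vertical axis) of single probes along Wwox in tumour 1 (red) and the median of the other 10 tumours (blue), by distance from the first Wwox probe in kb. The grey band marks the Wwox probes and the black bar the 115.8 kb segment of 12 probes with a mean of -0.43.

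The same 12 probes were read in the other 10 tumours. Their mean minus that of the rest of Wwox ran from -0.06 to 0.15 in the 8 other tumours with lower noise, and was -0.24 in tumour 11 (standard error 0.159) and 0.26 in tumour 9 (standard error 0.172). No other tumour had a change point in Wwox. The change points in tumour 1 were found under centring on the mode, normexp, the authors' value table and without dim probes as well, but not with a segmentation penalty factor of 4, under which no change point of at least 0.2 was placed in any of the 9 genes.

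The probes that bracket the Wwox loss place its edges, and they are shown for that reason. On the left the last probe outside the loss, at chr8:117574788-117574847, had a value of 0.01 and the first inside it, at chr8:117587710-117587769, had -0.83. On the right the last probe inside, at chr8:117703461-117703520, had -0.48 and the first outside, at chr8:117710503-117710561, had 0.00. The edges therefore lie within gaps of 12.9 kb and 6.98 kb. The sequences are those of the array files, whose strand is not stated, and capitals mark a longest run of A and T in each probe, since runs of A and T are known from fragile sites. These runs are 10, 9, 5 and 9 bases long, against a median of 6 bases over all probes of the array and 6 bases over the probes of the 9 genes, and a probe sequence says nothing of the DNA at the edge itself.
Wwox left, outside the loss: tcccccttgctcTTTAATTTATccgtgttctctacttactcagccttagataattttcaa
Wwox left, inside the loss: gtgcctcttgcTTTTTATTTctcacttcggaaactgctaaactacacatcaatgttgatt
Wwox right, inside the loss: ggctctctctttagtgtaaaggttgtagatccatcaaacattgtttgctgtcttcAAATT
Wwox right, outside the loss: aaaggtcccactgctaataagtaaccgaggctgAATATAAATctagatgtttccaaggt

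Lrp1b encodes a receptor of the low density lipoprotein receptor family and is the longest of the 9 genes on the array, with 203 probes between 40459693 and 42506541 on chromosome 2 (2047 kb). In tumour 8, 5 consecutive probes at chr2:40513707-40554302 (40.6 kb, beginning 54.0 kb from the first Lrp1b probe) had values from -1.46 to -0.20 with a median of -0.46 and a mean of -0.66. The other 198 probes averaged -0.17 in that tumour, so the stretch differed from them by -0.48 (standard error 0.060). It, too, was picked by segmentation for its low level on this array, so the difference is a description. This change was less well measured than that in Wwox: the probe at -1.46 was not well above background, and without it the difference of the remaining 4 probes was -0.28 and no change point was placed. With normexp background correction, too, the difference was -0.34 and no change point was placed. In the other 10 tumours the 5 probes differed from the rest of Lrp1b by -0.17 to -0.01, below 0 in 10 of 10.

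A separate search, which takes the best split of the probes of a gene into 2 parts and counts it from 0.2 and 5 standard errors, found 1 of the 99 pairs (1.01%), Lrp1b in tumour 8, against 0.961% over all genes with at least 20 probes and 1.97% over the other large genes. It did not count Wwox in tumour 1, where levels on either side of the loss are alike.

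The 4 probes at the edges of the Lrp1b stretch are shown for the same reason. The outer and inner probes on the left, at chr2:40507749-40507808 and chr2:40513707-40513766, had values of -0.14 and -0.46. The inner and outer probes on the right, at chr2:40554243-40554302 and chr2:40566382-40566441, had -0.20 and -0.06. Their longest runs of A and T, in capitals, are 5, 10, 4 and 5 bases long.
Lrp1b left, outside the stretch: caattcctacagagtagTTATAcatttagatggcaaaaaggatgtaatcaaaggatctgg
Lrp1b left, inside the stretch: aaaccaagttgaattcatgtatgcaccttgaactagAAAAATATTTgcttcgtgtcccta
Lrp1b right, inside the stretch: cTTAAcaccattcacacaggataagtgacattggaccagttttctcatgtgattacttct
Lrp1b right, outside the stretch: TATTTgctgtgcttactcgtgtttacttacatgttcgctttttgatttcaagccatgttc

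Probes of the 9 genes were like the rest of the array in base composition. Their mean GC content per gene was 36.2% to 37.0% with a median of 36.7%, against a median of 36.7% over the other large genes and 36.7% over all genes with at least 20 probes.

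**Figure D3:**
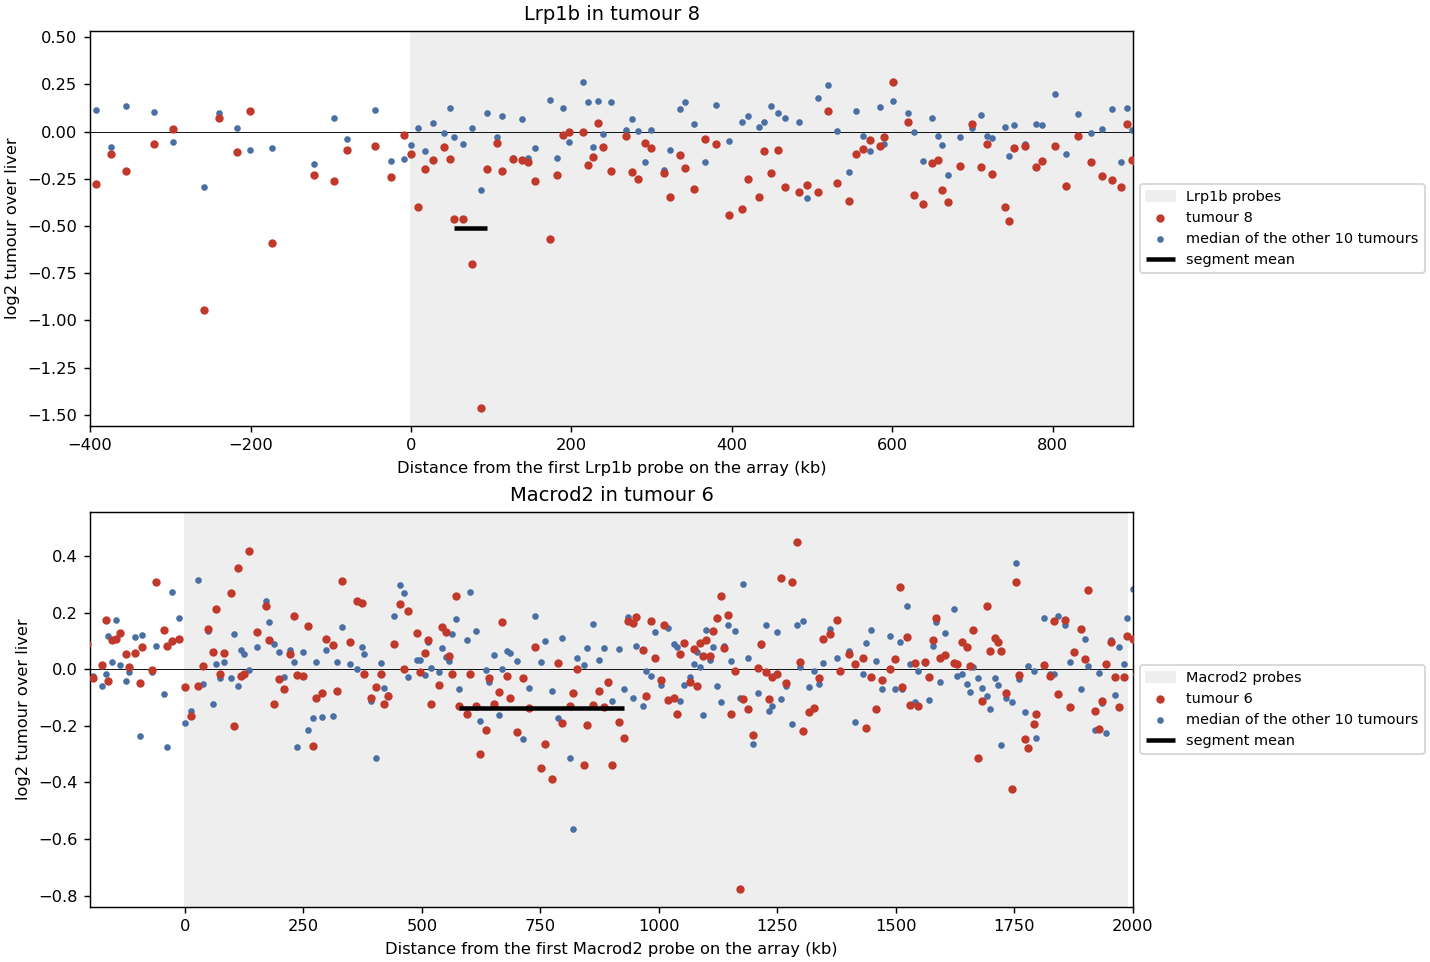
log2 tumour over liver (vertical axes) of single probes along Lrp1b in tumour 8 (top) and Macrod2 in tumour 6 (bottom), red, with the median of the other 10 tumours in blue, by distance in kb from the first probe of the gene. The top panel shows the lower-coordinate end of Lrp1b. The black bars are segment means: -0.51 for the 5 probes in Lrp1b, with the outlying probe limited as for segmentation, and -0.14 for 33 probes in Macrod2, less than 0.2 below its neighbours.

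Changes of the whole neighbourhood were more frequent than focal ones. A called segment (at least 10 probes and an absolute mean of at least 0.2) held most of the probes of a gene in 13 of 99 pairs, 8 as gains and 5 as losses. That is 13.1% of pairs, against 12.8% over all genes with at least 20 probes (6.7% gains and 6.06% losses) and 13.3% over the other large genes, so the share in the 9 genes lay near the background. The 13 pairs belonged to 5 genes, Dpyd, Wwox, Ptprd, Ctnna3 and Dlg2, and to the 7 tumours 1, 2, 3, 4, 6, 7 and 8. Fhit, Lrp1b, Macrod2 and Magi2 lay in no call in any of the 11 tumours, except that Lrp1b in tumour 8 and Magi2 in tumour 7 did with normexp, and Lrp1b in tumour 8 and Macrod2 in tumour 7 at a threshold of 0.15.

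**Figure D4:**
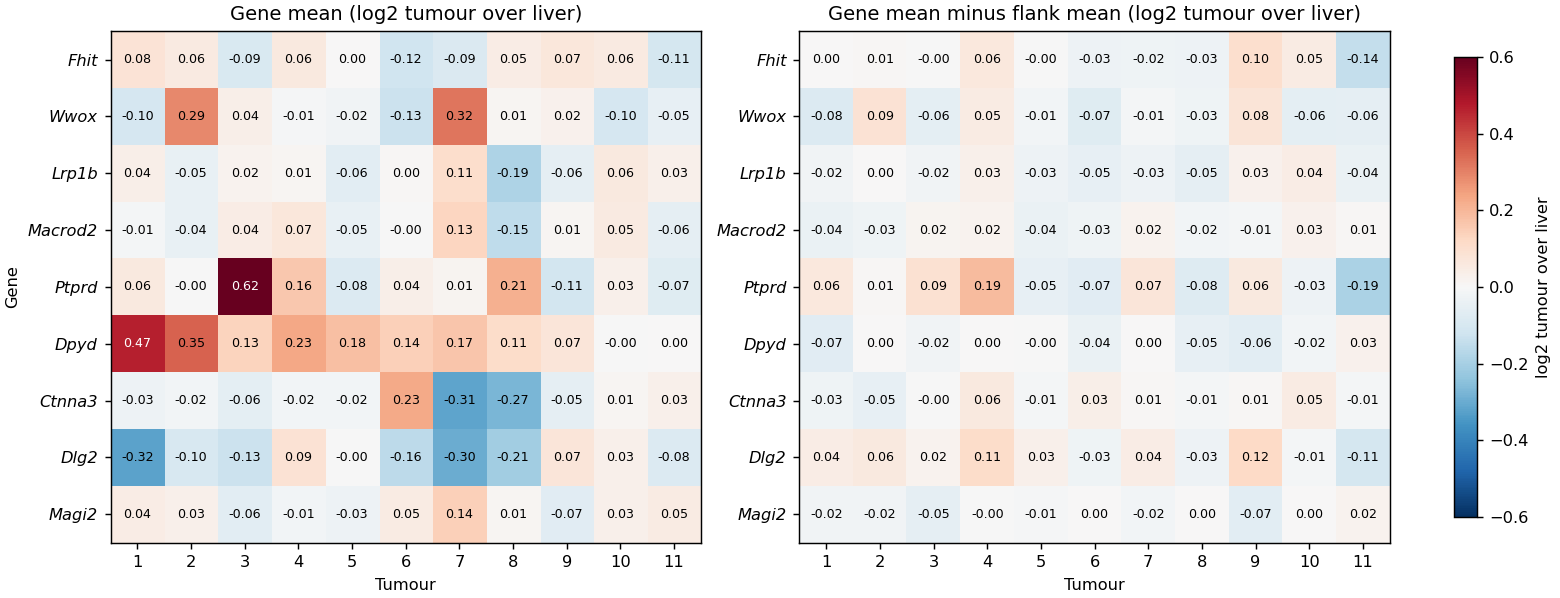
Mean of each gene (left) and gene mean minus flank mean (right) in log2 tumour over liver for the 9 genes (rows) in the 11 tumours (columns). The left panel runs from -0.32 to 0.62, while no cell of the right panel reaches 0.2 in size.

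Among the enzymes, Dpyd was the gene most consistently above 0. It encodes dihydropyrimidine dehydrogenase, the first and rate-limiting enzyme of pyrimidine breakdown, and has 82 probes between 118267353 and 119127890 on chromosome 3. Its gene mean was lowest in tumour 10 at -0.003, 0.14 at the median and highest in tumour 1 at 0.47. Tumours 1, 2 and 4, at 0.47, 0.35 and 0.23, were the highest, and 10 of 11 tumours lay above 0. The mean over tumours was 0.17 ± 0.14 (SD, n = 11), with a p of 0.00195 in a two-sided exact permutation test that flips signs over tumours (0.00391 with tumour 11 turned and 0.00391 without it) and, from limma across genes, an adjusted p of 0.0353 (0.0143 with tumour 11 turned and 0.0098 without it). Dpyd was the 1 of the 9 genes called higher or lower by limma, against 641 of 9305 genes (6.89%, 427 higher and 214 lower). That split over all genes depended on tumour 11: with its ratios turned it was 829 higher and 851 lower, and without it 831 higher and 781 lower. The call was lost when any 1 of tumours 1 to 8 was left out, with a mean of 0.14 to 0.18 and an adjusted p of 0.0610 to 0.0769, and with centring on the mode (adjusted p = 0.0698). Within slides the Dpyd means were 0.20, 0.12 and 0.20 on slides 1, 2 and 3.

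The gain of Dpyd belonged to its neighbourhood. In tumours 1, 2 and 4 it lay inside called gains of 12.02, 56.97 and 40.43 Mb with means of 0.53, 0.34 and 0.26. Gene mean minus flank mean averaged -0.02 ± 0.030 (SD, n = 11) for Dpyd, with an adjusted p of 0.558 by limma. Snx7 and Ptbp2, the nearest genes on either side with at least 3 probes, averaged 0.17 and 0.16 over the tumours.

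Fhit, a dinucleotide hydrolase and a tumour suppressor in mice, has 165 probes between 10384642 and 11985470 on chromosome 14. Its gene mean was lowest at -0.12 in tumour 6, 0.05 at the median and highest at 0.08 in tumour 1. No change point was placed in Fhit in any tumour, and its largest difference from its flanks was -0.14, in the noisy tumour 11. Its probes lie close to the lower end of chromosome 14 on the array, so most of its flank is on one side.

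Wwox gene means ran from -0.13 in tumour 6 over a median of -0.01 to 0.32 in tumour 7. Tumours 2 and 7, at 0.29 and 0.32, stood above the other 9 tumours. In tumour 7 the gain covered all probes of chromosome 8 at a mean of 0.31, and in tumour 2 it covered 49.1 Mb at a mean of 0.21. The call in tumour 2 lay at the threshold of 0.2 and was lost with normexp (0.17), with the authors' value table (0.197) and with a penalty factor of 1. The Wwox mean of 0.29 in tumour 2 was raised by dim probes, the highest at 5.19: it was 0.21 without dim probes, and the median over its probes was 0.18. The mean over tumours was 0.02 ± 0.15 (SD, n = 11; limma adjusted p = 0.797).

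Macrod2, an enzyme that removes ADP-ribose from proteins, has 202 probes between 140224267 and 142212190 on chromosome 2. Its gene mean was lowest at -0.15 in tumour 8, -0.003 at the median and highest at 0.13 in tumour 7, and the mean over tumours was -0.0004 (limma adjusted p = 0.995). Its difference from its flanks stayed between -0.04 and 0.03 (SD 0.026).

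Among the receptors and adhesion proteins, Ptprd had the highest single value of the 9 genes. It encodes a receptor-type tyrosine phosphatase and has 69 probes under that name between 75587703 and 76236593 on chromosome 4. A differently named transcript, ENSMUST00000107287, follows 13.7 kb above it with 108 probes. The Ptprd mean was lowest at -0.11 in tumour 9, 0.03 at the median and highest at 0.62 in tumour 3. Tumour 3 stood apart from tumour 8, the next, at 0.21, and the mean over tumours was 0.08 ± 0.20 (SD, n = 11; limma adjusted p = 0.439).

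In tumour 3 Ptprd lay in a called gain of 8.87 Mb with a mean of 0.61, between segments of 0.44 below and 0.73 above. In tumour 8 it lay in a gain of 2.38 Mb with a mean of 0.23 that begins 7.10 kb below the first Ptprd probe, between segments of 0.30 on each side. This segment ends 1719 kb above the last Ptprd probe, so it also holds probes that count among the flanks. The probes named Ptprd were thus gained less than their surroundings in tumour 8, by -0.08 (standard error 0.017), which is under the limit of 0.2. The transcript ENSMUST00000107287 begins 13.7 kb above them, inside the same segment. Whether it belongs to the same gene was not analysed, so how far the segment reaches beyond the gene is not known here. The largest differences from the flanks among all 99 pairs were also those of Ptprd, 0.19 in tumour 4 (standard error 0.036) and -0.19 in tumour 11 (standard error 0.067). These 2 arrays are among those that ran opposite to each other over the whole genome, and the part of that in the result was not tested.

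**Figure D5:**
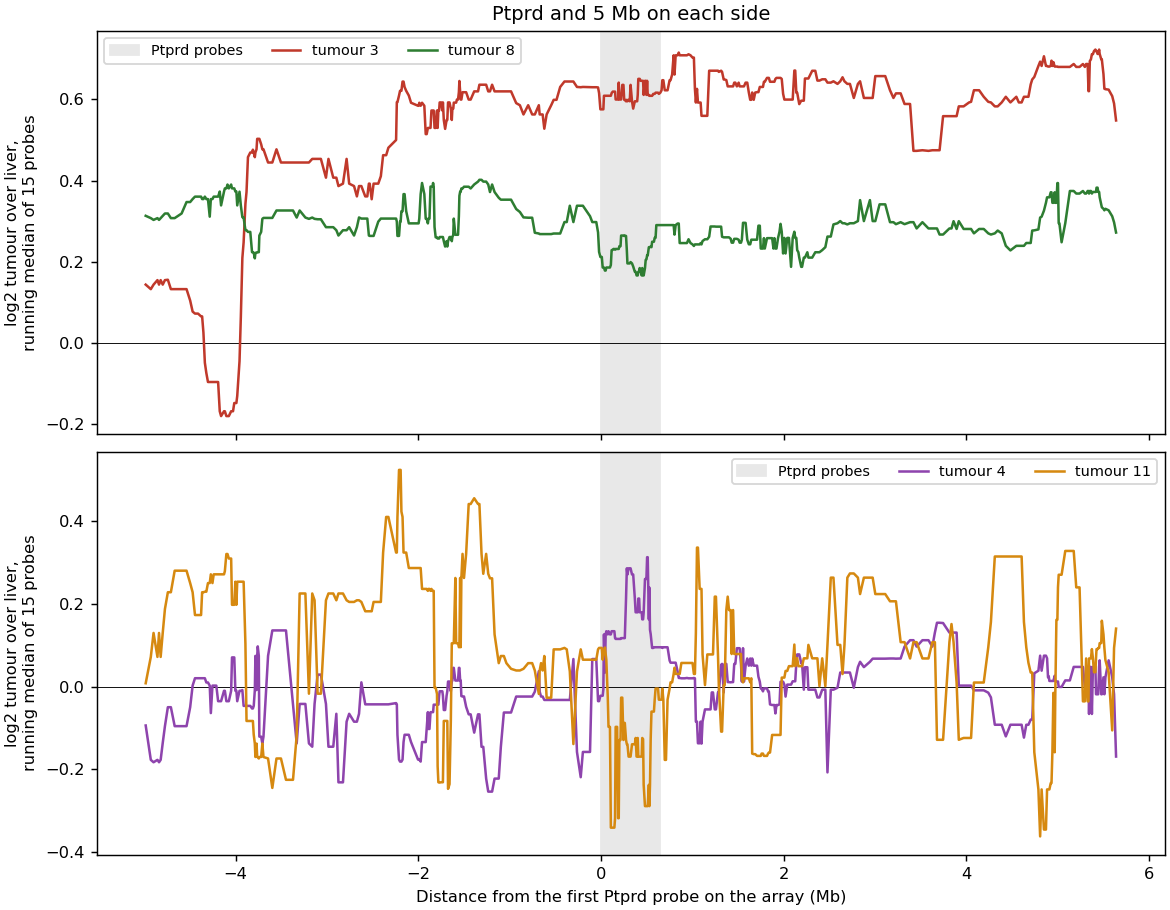
Running median over 15 probes of log2 tumour over liver (vertical axes) across Ptprd and 5 Mb on each side, by distance in Mb from the first Ptprd probe, for tumours 3 and 8 (top) and tumours 4 and 11 (bottom). The grey band marks the Ptprd probes. In tumour 8 the segment that holds the gene, lower than those on either side, reaches 1719 kb beyond the last Ptprd probe. Tumours 4 and 11 move in opposite directions over the gene, by 0.19 and -0.19 from their flanks.

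Lrp1b gene means ran from -0.19 in tumour 8 over a median of 0.01 to 0.11 in tumour 7, and its mean over tumours was -0.01 ± 0.078 (SD, n = 11; limma adjusted p = 0.921). Tumour 8 was the lowest of both genes on chromosome 2, Lrp1b and Macrod2, and tumour 7 the highest of both. In tumour 8 the flanks of Lrp1b averaged -0.13 and those of Macrod2 -0.14.

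Ctnna3 encodes alpha-T-catenin, an adherens junction protein, and has 159 probes between 62902046 and 64458083 on chromosome 10. Its gene mean was lowest at -0.31 in tumour 7, -0.02 at the median and highest at 0.23 in tumour 6, and it was the only one of the 9 genes whose neighbourhood was in a called gain in 1 tumour and in called losses in others. The gain in tumour 6 covered 29.4 Mb at 0.23 and the loss in tumour 7 covered 107.6 Mb at -0.32. In tumour 8 the gene lay in 2 adjoining loss segments of 3.92 and 5.51 Mb, at -0.22 and -0.31. The mean over tumours was -0.05 ± 0.15 (SD, n = 11; limma adjusted p = 0.584).

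Dlg2 and Magi2 encode scaffold proteins, which organise membrane complexes at cell junctions and synapses. Dlg2 has 145 probes between 98245648 and 99594310 on chromosome 7, and its gene mean was lowest at -0.32 in tumour 1, -0.10 at the median and highest at 0.09 in tumour 4. Tumours 1, 7 and 8, at -0.32, -0.30 and -0.21, were the lowest, and 8 of 11 tumours lay below 0. The mean over tumours was -0.10 ± 0.14 (SD, n = 11). It did not pass the test across genes (limma adjusted p = 0.181), while the two-sided exact permutation test for the single gene gave p = 0.0420, 0.0908 with tumour 11 turned and 0.0605 without it.

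The called losses over Dlg2 were 14.6 Mb at -0.34 in tumour 1, 96.0 Mb at -0.33 in tumour 7 and 8.31 Mb at -0.20 in tumour 8. Its flanks averaged -0.12 over the tumours and the gene minus its flanks 0.02 ± 0.065 (SD, n = 11; limma adjusted p = 0.665). Set against AK021007, the nearest differently named gene below it with at least 3 probes, Dlg2 was lower in all 11 tumours, by -0.36 to -0.07, but AK021007 has 3 probes and lies 594.2 kb away.

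Magi2 has 80 probes under that name between 19422981 and 20194942 on chromosome 5, and the transcript ENSMUST00000088516 lies 12.3 kb below it with 45 probes. Whether this transcript and that beside Ptprd belong to the same genes was not analysed here. If they do, the flanks of Magi2 and Ptprd hold probes of the gene itself. Its gene mean was lowest at -0.07 in tumour 9, 0.03 at the median and highest at 0.14 in tumour 7, the least spread of the 9 genes over tumours (SD 0.060). Its mean over tumours was 0.02 (limma adjusted p = 0.808), and its difference from its flanks ran from -0.07 to 0.02.

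None of the 9 genes was called as shifted against its flanks across the tumours. By limma on gene mean minus flank mean, 0 of 9 passed, against 1 of 2742 genes (0.0365%), with means from -0.02 to 0.02 and adjusted p from 0.558 to 0.989. At an unadjusted p under 0.05 the count was again 0 of 9, against 353 of 2742 genes (12.9%). At both shares a count of 0 among 9 genes lies near the background and says little. With tumour 11 turned, 0 of 9 passed as well, while the exact permutation p for single genes was 0.0117 for Dpyd, 0.0117 for Magi2 and 0.0273 for Dlg2, at means of -0.03, -0.02 and 0.04. Without tumour 11 these p-values were 0.0234, 0.0234 and 0.0547. The median of the means was -0.01 for the 9 genes and 0.002 for all genes tested. The probes of the lower-coordinate part of each gene were also set against those of its higher-coordinate part: 0 of 9 passed, against 4 of 1078 genes (0.371%), with differences from -0.03 to 0.04 and adjusted p from 0.454 to 0.887 by limma. Here too 0 of 9 had an unadjusted p under 0.05, against 219 of 1078 genes (20.3%), and a count of 0 among 9 genes again says little.

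For each of the 9 genes, the gene on another chromosome with at least 10 probes whose means were most alike over the 11 tumours was picked by Pearson's r, which is a description of the maximum over some 2514 to 2628 genes. The pick is given for 8 of the 9 genes. Ctnna3 was most like Lyst on chromosome 13 (r = 0.896) and Lrp1b like Sertad2 on chromosome 11 (r = 0.893). Macrod2 was most like the transcript ENSMUST00000102801 on chromosome 11 (r = 0.880), Wwox like A430107O13Rik on chromosome 6 (r = 0.869) and Fhit like Osbpl3 on chromosome 6 (r = 0.868). For Magi2 it was Hibadh on chromosome 6 (r = 0.865), for Ptprd AK143547 on chromosome 3 (r = 0.848) and for Dpyd Spata13 on chromosome 14 (r = 0.836). These values share the arrays and their noise.

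Other genes of fragile sites or of very large size were read in the same way. Of 29 such genes, 27 had probes under the names searched and 26 had at least 20 probes. Change points of at least 0.2 lay inside the gene in 7 of 286 pairs (2.45%), beside 0.599% over all genes with at least 20 probes and 2.02% in the 9 genes. The gene was off its flanks in 8 pairs, 2 higher and 6 lower (2.80%), beside 1.35% over all genes with at least 20 probes. Among these change points were those in Pde4d, a cyclic AMP phosphodiesterase, in tumours 2 and 3, in Dmd (dystrophin) in tumour 10, and in Rad51b (Rad51l1 on the array), Negr1 and Pard3b in tumour 2. Most of the change points in this list thus lay in tumour 2. Its array had 8.14% dim spots, more than any other but that of tumour 9 (12.8%). How far these change points depend on dim probes is not given here. Among the genes off their flanks, Exoc4 lay below its flanks by -0.32 in tumour 6 and Rad51b, a recombination protein, by -0.25 in tumour 2. Negr1 (tumours 9 and 11) and Dab1 (tumours 4 and 11) were each off their flanks once higher and once lower, in pairs of arrays that ran opposite to each other. By limma against 0, 3 of 27 were called higher (Nbea at 0.23, Negr1 at 0.20 and Ctnnd2 at 0.17) and 0 lower, against 4.59% and 2.3% of all genes. By limma against flanks 0 of 27 were called, with a lowest adjusted p of 0.435, against 0.0365% of all genes tested. Nbea and Negr1 lie on chromosome 3, as Dpyd does, and Ctnnd2 on chromosome 15. Nbea, Negr1 and Ctnnd2 lay inside called gains in 4, 3 and 4 tumours. Nbea and Ctnnd2, like Fanci and Pold3 below, were named after their values were seen.

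Genes that respond to stalled replication and protect fragile sites were sparsely covered. Of 20 such genes 17 had probes and 11 had at least 3, and 0 of these 11 passed limma against 0 in either direction, beside 6.89% of all genes tested, a share at which a count of 0 in so short a list says little. The lowest adjusted p were 0.0835 for Fanci (mean -0.13) and 0.0939 for Pold3, a DNA polymerase delta subunit used in repair of fragile sites (mean -0.14).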

How the data were processed

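The deposited scanner files hold intensity values per spot, red for tumour and green for liver, background-subtracted and scaled between dyes by a linear factor in the authors' scanner software, with raw median intensities and a log10 ratio of the processed signals. Per the submitters' processing notes, Agilent Feature Extraction 10.5.1.1 and Partek (no version given) were used. Per the file headers, tumours 4, 7, 9 and 11 (slide 2) were read with version 11.0.1.1, tumours 2, 3 and 8 lie on slide 1 and tumours 1, 5, 6 and 10 on slide 3, and positions are those of mm9. The authors' value table holds log2 ratios that equal the mean log10 ratio of a probe converted to log2, with column medians of -0.0490 to 0.0213. Gene names stand in the files of slides 1 and 3, and slide 2 was matched by probe name.

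The log2 of red over green processed signal was averaged per probe without outlier spots (0 spots were saturated), and the array median was subtracted. In tumour 2 the deposited log10 ratio is 0 at 18 spots of the 9 genes. All spots of this kind were dim, and they entered with the ratio of their processed signals, which was above 0 in tumour 2. Arrays were segmented by exact optimal partitioning (penalty per change point of 2 × noise variance × ln of the number of probes, segments of at least 5 probes, outlying values limited to 4 SD around the running median over 11). Genes with at least 3 probes (against 0), 10 (against flanks) or 20 (lower against higher part) were tested with limma 3.58.1 in R 4.3.3 on an intercept, called where the Benjamini-Hochberg adjusted p was under 0.05 and the mean at least 0.1 in size. Single genes have exact sign-flip permutation p-values over the 11 tumours, whose smallest value is 0.000977. Standard errors within 1 array come from its noise SD and cover measurement noise only. P-values set the mean over tumours against the spread between the 11 animals, which limma moderates with that of the other genes. Scripts were tested on simulated data, in Python 3.11.15.

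Genes were named by rule: the 9 genes, their most alike and nearest genes, and list genes with a change point or off their flanks. Some genes that the rule names are not reported here. The genes and lists were chosen with earlier results of these data known. The normexp alternative (offset 50) used median signals, since mean signals were not at hand for all arrays. Alternatives for centring, background, values, dim probes, slide, flanks, segmentation and single tumours are in the closing section.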

Additional observations from a re-analysis of the deposited data

How the results depend on the processing

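Of the 9 genes, 0 passed against flanks and 0 between lower and higher part in every alternative run (mode centring, normexp, the authors' value table, dim probes out, spots with a deposited log ratio of 0 out, tumour 11 turned, without tumours 9 and 11, slide as a block, other flanks or parts, and each tumour left out), and 0 pairs were off their flanks in every alternative. Against 0, the 1 call, Dpyd, was lost with mode centring (0 calls), and with 1 tumour left out the count ran from 0 to 1. Pairs with a change point inside were 1 with normexp and 1 without dim probes (Wwox in both), 7 with penalty factor 1 (Fhit in tumour 2, Wwox in tumour 1, Lrp1b in tumour 8, Ptprd in tumour 4, Dlg2 in tumours 2 and 7 and Magi2 in tumour 2), 0 with penalty factor 4 and 1 to 2 with 1 tumour left out, 1 without tumour 1 or 8. Pairs inside a call were 22 at a threshold of 0.15 and 8 at 0.3, and 10 to 13 with 1 tumour left out (10 without tumour 7 or 8); with normexp, Wwox in tumour 2 and Dlg2 in tumour 8 lost their calls, and Dpyd in tumours 5, 6 and 8, Lrp1b in tumour 8 and Magi2 in tumour 7 gained one. Mode centring lost the call of Ptprd in tumour 8 and gained 1 in tumour 9. Leaving out spots with a deposited log ratio of 0, an alternative chosen after seeing the data, changed none of these counts, with 648 calls against 0 over all genes. Best splits were 0 with normexp, 2 with the authors' value table, 0 without dim probes, 0 at a height of 0.3, and 0 to 1 with 1 tumour left out, 0 without tumour 8. Over all genes, calls against 0 ran from 54 (without tumour 3) to 1680 (tumour 11 turned) around 641, with 1501 for slide as a block, whose estimated correlation was -0.11, and 162 with mode centring; against flanks from 0 to 80 around 1, and between parts from 0 to 108 around 4. The causes were not tested. No paired analysis was possible because the tumours form 1 group and each ratio is already taken within an animal. With 1 array per tumour, changes of a few probes are limited by the noise of that array, most of all in tumours 9 and 11.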

Other observations

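Macrod2 held 4 further change points, each with a step under 0.2, in 3 tumours, all between 572.2 and 933.8 kb from its first probe. In tumour 6 a stretch of 33 probes (348.8 kb) had a mean of -0.14 between segments of 0.03 and 0.03, and 30 of its 33 probes lay below the mean of the rest of the gene. Segmentation picked this stretch for its level on the same array, so that count is a description. The step was -0.13 in tumour 2, at 613.1 to 622.3 kb, and -0.04 in tumour 1, at 738.4 to 750.6 kb. Read in the other 10 tumours, the 33 probes differed from the rest of Macrod2 by a median of -0.03, by -0.07 to 0.04 in the 8 tumours of lower noise and by -0.19 in tumour 11.

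Ctnna3 held 2 such change points at close positions, at 363.8 to 379.8 kb from its first probe in tumour 4 and at 389.8 to 397.1 kb in tumour 8. The steps went opposite ways, 0.19 in tumour 4 and -0.08 in tumour 8. Both were noticed in these data and are single-array descriptions.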
